A study of Mus musculus with 6 samples.

Results

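The 6 Gata genes, Gata1 to Gata6, were examined in the list of H3K27ac peaks of control, DMSO-treated mouse embryonic stem cells (mESCs). They were taken by name as the whole family, 6 of the 21853 protein-coding genes of the annotation. For each gene, control peaks were sought within 1 kb of the transcription start site (TSS) of any coding isoform (the promoter), in the rest of the gene (the gene body) and up to 100 kb beyond either gene end (the flanks). The study performed ChIP-seq of H3K27ac, acetylation of lysine at the tail of histone H3, in E14 mESCs (E14Tg2A Rosa26-Cre Oct4-IRES-Puro) kept in N2B27 medium with LIF and the inhibitors PD0325901 and CT-99021. Cells received for 120 min either the solvent DMSO (control), 100 nM NVP-2, which inhibits the elongation kinase CDK9, or 800 nM actinomycin D (ActD), which binds DNA and blocks RNA polymerases. Each group had 2 of the 6 samples, and human HEK293 chromatin was added to all of them as a spike-in. The values below come from 1 list of 22973 peaks that pools both control samples and gives only positions in mm10. This list therefore gives no replicate error, no level of acetylation and no treated sample to compare. The counts and distances are descriptions without a test.

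GATA factors are zinc finger transcription factors named after the DNA word GATA that they bind. Gata1, Gata2 and Gata3 are best known from blood, where Gata1 directs red cell and platelet formation, Gata2 maintains stem and progenitor cells and Gata3 specifies T cells. Gata3 and Gata2 also act in the trophoblast of the placenta. Gata4, Gata5 and Gata6 act in the heart and in endoderm, and Gata6 and Gata4 mark the primitive endoderm, the lineage that separates from the pluripotent cells of the blastocyst. H3K27ac is found at active promoters and enhancers, whereas the CpG-rich promoters of many developmental regulators carry Polycomb marks in mESCs.

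The labelled cell type was checked by marker genes, beside a share of 51.0% marked promoters over all protein-coding genes. Promoters of 11 of 12 embryonic stem cell genes were marked, Pou5f1, Nanog, Sox2 and Esrrb among them, and Klf4 was the exception with its nearest peak 14.1 kb from a TSS. None of 6 fibroblast genes had a marked promoter, and a count of 0 among 6 allows a share of up to 50%, about that of all genes. Of 7 genes listed for trophoblast, 5 were marked, so marking was not confined to the embryonic stem cell list. Peaks in the list had a median width of 2068 bp (quartiles 1413 and 4310 bp).

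Of the Gata genes, 2 of 6 had a marked promoter, Gata4 and Gata6. Across all protein-coding genes the share was 51.0% (11149 genes, 95% Wilson interval 50.4 to 51.7%, which covers counting error only). Gata1, Gata2, Gata3 and Gata5 had no peak within 1 kb of any coding start. Of the 18 coding isoforms of the family, which use 16 distinct starts, 5 had a peak within 1 kb, 2 of Gata4 and all 3 of Gata6. A gene body peak outside the promoters was present in 1 of 6 genes, Gata3, beside 19.3% of all protein-coding genes. All 6 had at least 1 peak within 100 kb, as had 82.8% of all protein-coding genes with the 3 classes combined. For a promoter without a listed peak, absent signal and signal under the thresholds of the authors cannot be told apart. Nor can signal that the authors removed because it lay away from an ATAC-seq summit.

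The 6 genes together held 26 peaks, 2 in promoters, 1 in a gene body and 23 in flanks. Their number per gene was 7 for Gata1, 5 for Gata4, 4 each for Gata2 and Gata3 and 3 each for Gata5 and Gata6. The family median of 4.0 equalled the median of all protein-coding genes, 4.00 (quartiles 1 and 7). Of the 23 flank peaks, 12 overlapped a promoter of another gene, 7 at Gata1, 3 at Gata4 and 2 at Gata5, and 11 did not. Among all 79978 pairs of a protein-coding gene and a flank peak, 59.0% had the peak at a promoter of another gene. Only starts of protein-coding and long intergenic noncoding RNA (lincRNA) genes were compared for nearness to a peak. Among these, a Gata start was the nearest one for 3 of the 23 flank peaks (13.0%). In 5.95% of all pairs the nearest start was that of the gene.

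**Figure D1:**
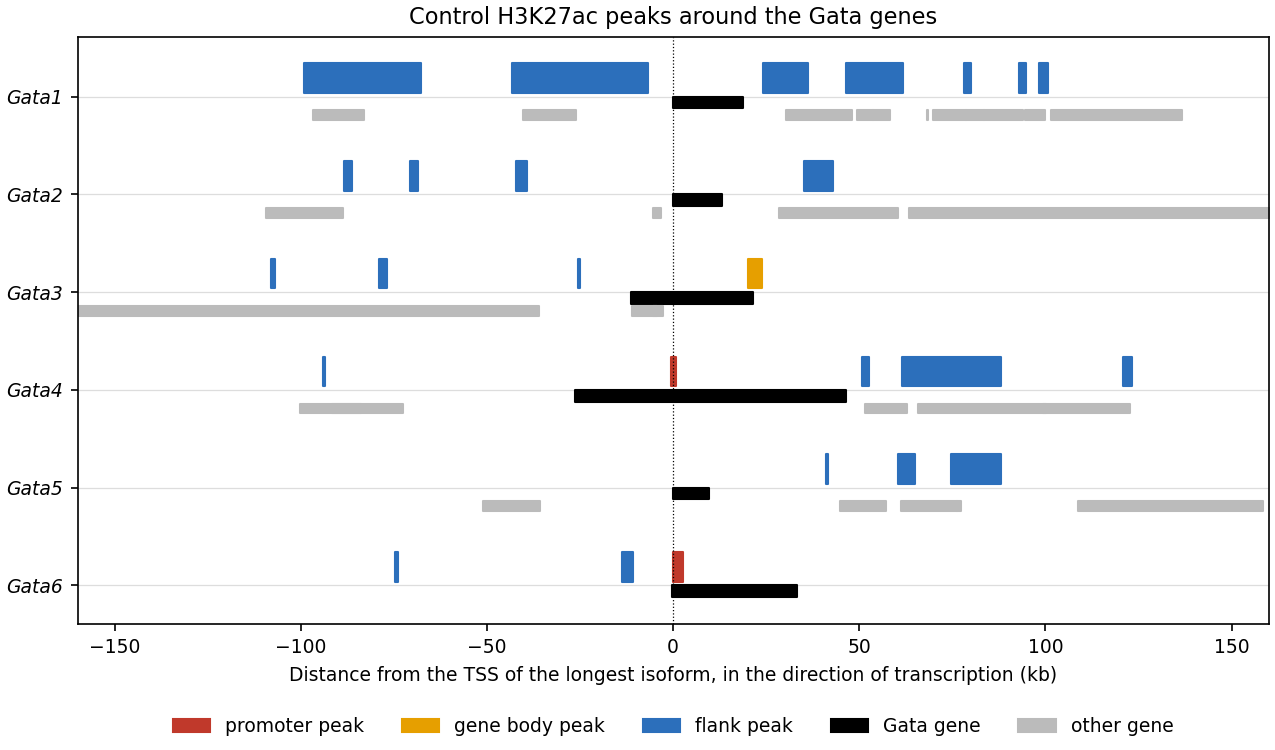
Positions of control peaks around each Gata gene, as distance in kb from the TSS of the longest isoform, with transcription running to the right. Red, orange and blue blocks are promoter, gene body and flank peaks, black blocks the Gata genes and grey blocks other genes. Peaks at the dotted line are seen at Gata4 and Gata6 only. The broad blocks beside Gata1 overlap other genes but also extend beyond them.

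**Figure D2:**
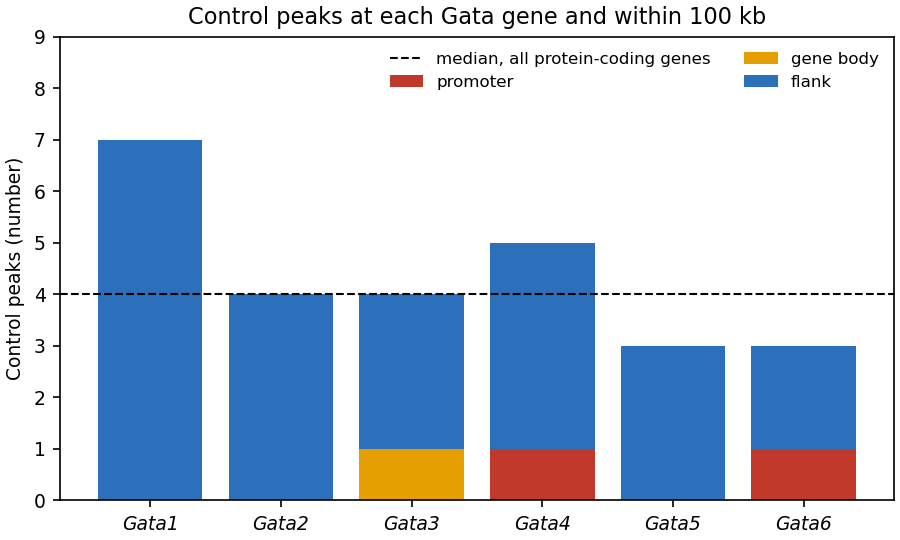
Number of control peaks per Gata gene, stacked by class. Gata1 has 7 peaks, all in its flanks, and the dashed line is the median of 4.00 over all protein-coding genes.

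The promoters of the 4 unmarked genes differed in base content, and their sequences are shown to make that visible. Below are the bases before the start site as RefSeq gives them (GRCm38, the build of the list), 5′ to 3′ on the strand of the gene, with every CG dinucleotide in capitals. RefSeq windows were matched for 4 members, Gata1, Gata2, Gata3 and Gata5. The 20 bases directly before the RefSeq start of Gata5, which are UTR in GENCODE, were left out, and so was a second Gata2 window, whose bases before the start are UTR. They lie at chrX:7967911-7968160 (minus strand) for Gata1, chr6:88193641-88193890 (plus strand) for Gata2, chr2:9878601-9878850 (minus strand) for Gata3 and chr2:180334700-180334929 (minus strand) for Gata5.
Gata1: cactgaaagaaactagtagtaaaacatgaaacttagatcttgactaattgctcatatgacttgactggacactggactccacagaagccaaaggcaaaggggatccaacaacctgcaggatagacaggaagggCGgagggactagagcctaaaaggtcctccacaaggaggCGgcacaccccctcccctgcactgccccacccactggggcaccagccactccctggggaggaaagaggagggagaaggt
Gata2: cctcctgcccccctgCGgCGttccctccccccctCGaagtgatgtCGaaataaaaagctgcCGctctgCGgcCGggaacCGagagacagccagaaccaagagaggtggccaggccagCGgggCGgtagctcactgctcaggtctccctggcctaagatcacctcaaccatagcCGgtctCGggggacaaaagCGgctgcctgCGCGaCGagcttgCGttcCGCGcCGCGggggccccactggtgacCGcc
Gata3: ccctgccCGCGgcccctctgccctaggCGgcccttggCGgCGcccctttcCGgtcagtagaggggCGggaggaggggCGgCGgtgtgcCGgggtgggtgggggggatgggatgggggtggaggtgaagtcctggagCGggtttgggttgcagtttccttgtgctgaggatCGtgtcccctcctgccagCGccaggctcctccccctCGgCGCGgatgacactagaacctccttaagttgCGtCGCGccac
Gata5: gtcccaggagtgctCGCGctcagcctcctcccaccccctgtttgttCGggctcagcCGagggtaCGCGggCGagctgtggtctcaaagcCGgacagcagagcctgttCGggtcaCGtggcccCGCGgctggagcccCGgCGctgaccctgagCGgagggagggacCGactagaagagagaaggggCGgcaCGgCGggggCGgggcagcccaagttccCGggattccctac
The Gata1 stretch held 2 CG dinucleotides in 250 bp at a GC content of 54.0%. That of Gata2 held 22 in 250 bp at 67.2%, that of Gata3 19 in 250 bp at 70.0%, and that of Gata5 21 in 230 bp at 70.4%. CG dinucleotides were thus dense before the starts of Gata2, Gata3 and Gata5 and sparse before that of Gata1, although none of the 4 was marked.

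This split held in wider windows. CpG content was taken as the number of CG dinucleotides observed over that expected from the C and G content, in the 2001 bp centred on each start. Over the longest isoforms of all protein-coding genes the median was 0.482 (quartiles 0.211 and 0.665). The 3 Gata1 promoters had 0.146, 0.228 and 0.275. Gata2 had 0.645 and 0.681, Gata5 0.718, and Gata3 0.686 at its main start and 0.454 at the upstream one. Gata2, Gata5 and the main start of Gata3 therefore lay in the upper part of the distribution without a peak, where most promoters had one. With CpG-rich defined as 0.6 or more, 83.6% of 7567 CpG-rich promoters were marked (82.8 to 84.4%), against 30.4% of the other 14286 (29.7 to 31.2%). The marked starts of Gata4 had 0.598 and 0.607 and those of Gata6 had 0.584 to 0.618, on both sides of that bound. The 4 remaining Gata4 isoforms, which start elsewhere and were unmarked, had 0.199 to 0.218.

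**Figure D3:**
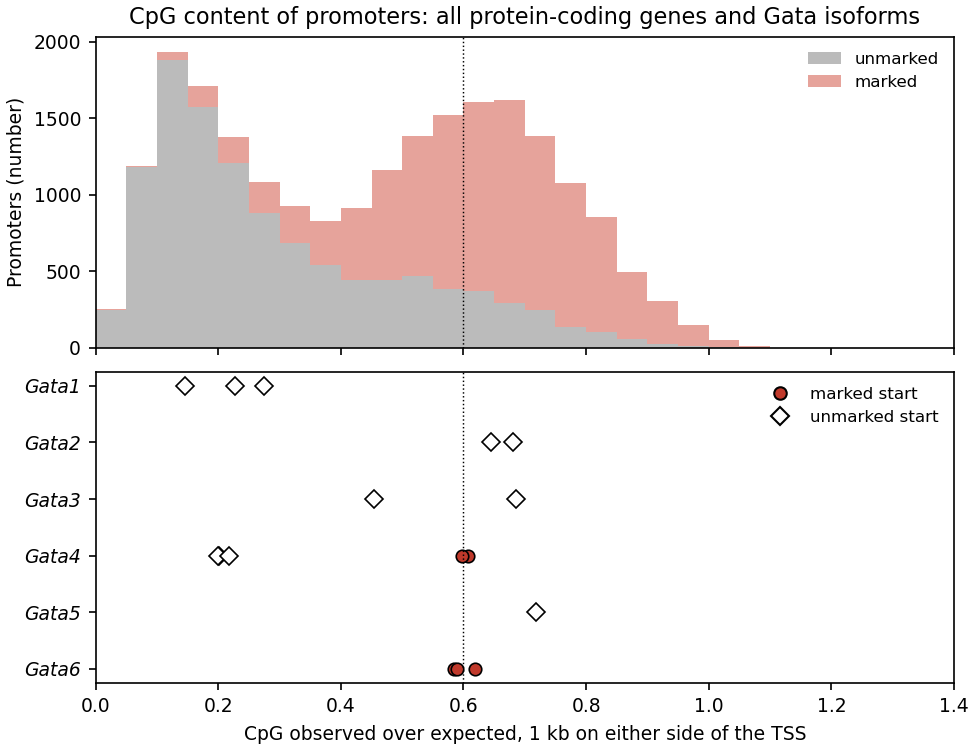
CpG content, observed over expected, in the 2001 bp around the TSS. The upper panel stacks marked (red) and unmarked (grey) promoters of the longest isoforms of all protein-coding genes, the lower panel gives each Gata start, and the dotted line is 0.6. Unmarked starts of Gata2, Gata3 and Gata5 lie to the right of the line.

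The GATA word itself was counted in the same windows on both strands. The letters searched were AGATAA together with AGATAG, which differ in the last base, followed by the forms starting with T, TGATAA along with TGATAG. No stretch can match more than 1 of these words, but neighbouring matches may share bases and were each counted. Of the 32851 RefSeq promoter windows of 300 bp, 29.8% held at least 1. Among the Gata windows, that of Gata3 held 1 and those of Gata1, Gata2 and Gata5 held 0. In the 2001 bp windows the counts were 2 at each start of Gata2, 1 at each start of Gata3, 2 at Gata5, 0 to 3 at Gata4 and 7 at each start of Gata6, whose windows overlap. Gata1-203, which starts inside the Gata1 gene, stood out with 17, against 5 at Gata1-201 and 0 at Gata1-202. These are matches of letters and not binding sites.

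Gata1 (ENSMUSG00000031162.14) is transcribed from the minus strand at chrX:7959260-7978071. No peak fell in its 18.8 kb, yet it lay in the most densely covered surroundings of the family. Peaks covered 46.6% of the gene with its 100 kb flanks, more than for 99.7% of all protein-coding genes and 98.1% of the 948 genes on the X chromosome, where the median was 1.30%. All 7 flank peaks overlapped promoters of other genes. Upstream, a peak of 36603 bp at Glod5, wider than 99.6% of all peaks, ended 6.70 kb before the first Gata1 start, and a peak of 31622 bp lay over the promoter of Suv39h1, which encodes a histone H3 lysine methyltransferase. Downstream, a peak of 12159 bp at the deacetylase gene Hdac6 ended 5.36 kb from the gene, followed by 15406 bp at Eras and Pcsk1n. Eras encodes a Ras protein of embryonic stem cells. The 3 farther peaks, at Pqbp1 and Timm17b, Slc35a2 and Pim2, were 1828 to 2469 bp wide. Between the peaks at Glod5 and Hdac6, 30.9 kb that hold all 3 Gata1 starts were without a peak, and 54.0% of the 22952 gaps between neighbouring peaks were shorter. The other Gata1 starts were 14.0 kb (Gata1-201) and 10.3 kb (Gata1-203) from a peak.

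Gata2 (ENSMUSG00000015053.14, plus strand, chr6:88193891-88207032) also had neither a promoter nor a gene body peak. Its starts were 35.2 kb (Gata2-202) and 30.7 kb (Gata2-201 and Gata2-203) from the nearest peak, and 32.0% of protein-coding genes were farther from one. None of its flank peaks touched the promoter of another gene. Upstream lay peaks of 2856, 1965 and 2131 bp at 39.4, 68.6 and 86.3 kb from the gene, all outside genes. Downstream a peak of 7732 bp lay 22.0 kb away over Dnajb8, a chaperone gene whose promoter was unmarked. The promoter of the adjacent lincRNA gene Gm38708, 3.21 kb upstream, was unmarked too. The nearest genes with marked promoters were Eefsec, 50.3 kb downstream, and Rpn1, 88.6 kb upstream. A stretch of 74.6 kb around the first Gata2 start was without a peak, longer than 74.2% of gaps.

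Gata3 (ENSMUSG00000015619.10, minus strand, chr2:9857078-9890034) had the sole gene body peak of the family. That peak, of 3608 bp at chr2:9854861-9858468, lay across the 3′ end of the gene. It covered 1295 bp of 3′ UTR and 96 bp of coding sequence and ran 2217 bp past the gene, 20.1 kb from the main start, that of the longest isoform Gata3-201. With peaks placed by their midpoint it was outside Gata3, and the number of members with a gene body peak was then 0. Upstream of the first start (Gata3-202), at 13.7 kb, was a narrow peak of 550 bp at chr2:9903717-9904266, in no gene, and only 5.12% of peaks were narrower. It was the sole flank peak outside the Gata6 locus whose nearest coding or lincRNA start was that of a Gata gene. The antisense gene Gm13262 on the plus strand begins 16.1 kb upstream of Gata3, nearer to this peak. Its start was not among those compared. The other flank peaks, 2113 and 1268 bp wide, lay 65.5 and 95.4 kb upstream within Taf3, which encodes a subunit of the general transcription factor TFIID and had a marked promoter. With starts of every transcript type counted, and not coding ones alone, 3 genes that overlap Gata3 (Gm13256, 4930412O13Rik and 9230102O04Rik) were 18.8, 21.1 and 14.2 kb from a peak. The central 300 bp of the narrow upstream peak, the nearest to a Gata3 start, read as follows on the plus strand of GRCm38 at chr2:9903841-9904140, with the 1 GATA word in capitals.
Gata3 upstream peak: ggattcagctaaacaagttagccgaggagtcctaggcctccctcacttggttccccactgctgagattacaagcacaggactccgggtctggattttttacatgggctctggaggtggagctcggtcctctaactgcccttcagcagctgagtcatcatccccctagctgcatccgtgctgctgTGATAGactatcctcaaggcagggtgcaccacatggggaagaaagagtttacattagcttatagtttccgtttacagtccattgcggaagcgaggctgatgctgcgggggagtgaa
Its GC content was 53.0% with 8 CG dinucleotides, and over the whole peak GATA words numbered 1.82 per kb, beside a median of 1.41 over all peaks.

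Gata4 (ENSMUSG00000021944.15, minus strand, chr14:63198922-63271692) was marked at the start shared within 23 bp by Gata4-201 and Gata4-202. The peak, at chr14:63244576-63245808, was 1233 bp wide and spanned positions -537 to 695 bp relative to the TSS. Counted over all isoforms, it covered 121 bp of 5′ UTR, 1112 bp of intron and 0 bp of coding sequence. The intron bases before this start belong to the isoforms that start further upstream, Gata4-204, Gata4-205 and Gata4-206. The starts of Gata4-204, Gata4-205 and Gata4-206, 26.4 and 25.9 kb further upstream, were 25.9 and 25.3 kb from a peak, and that of Gata4-203, 31.7 kb downstream, was 19.2 kb from one. The mark was thus present at 1 of several start regions of the gene. On the downstream side the flank peaks lay over the promoters of Neil2 (1845 bp, 4.51 kb from the gene), Fdft1 (26774 bp, wider than 99.0% of peaks) and Ctsb (2495 bp). The remaining flank peak lay upstream.

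Gata5 (ENSMUSG00000015627.5, minus strand, chr2:180325133-180334699) had the most distant nearest peak of the family. Its single start was 41.0 kb from a peak, and 29.0% of protein-coding genes were farther. No peak lay upstream within 100 kb, and the next in that direction was 122 kb from the start, so that 163 kb around the start were free of peaks, longer than 86.8% of gaps. All 3 flank peaks were downstream, 420 bp in no gene 31.5 kb from the gene, 4412 bp at Cables2 and 13548 bp at the ribosomal protein gene Rps21. The 420 bp peak was wider than 2.74% of peaks and lay 3377 bp from the start of Rbbp8nl, whose promoter was unmarked. The start of the antisense gene Gata5os was 39.2 kb from a peak. Upstream, the promoter of the lincRNA gene B230312C02Rik was unmarked. The muscle microRNA genes Mir1a-1 and Mir133a-2 had no peak within 1 kb of their annotated starts.

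Gata6 (ENSMUSG00000005836.10, plus strand, chr18:11052064-11085635) was marked by a peak of 2607 bp that began 80 bp after the start of its longest isoform and ended 2686 bp after it. The start of Gata6-206 lay inside the peak, and those of Gata6-201 and Gata6-203 were 80 and 486 bp from its edge. The peak covered 562 bp of 5′ UTR, 1084 bp of coding sequence and 961 bp of intron, unlike the Gata4 peak, which held no coding bases. It also covered a start of 1010001N08Rik, a noncoding gene transcribed in the opposite direction, and the list does not assign it to either gene. Both flank peaks were nearer to a Gata6 start than to any other coding or lincRNA start. They were 2852 bp at 10.5 kb upstream within 1010001N08Rik and 848 bp at 73.6 kb upstream. Starts of 1010001N08Rik were not compared. Downstream the next peak was 602 kb away, and 96.2% of gaps were shorter. The adjacent coding genes were Mib1, 233 kb upstream, and Rbbp8, 548 kb downstream, both with marked promoters.

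Distance to the nearest peak ordered the family as Gata4 and Gata6 (a start inside a peak), Gata1 (6.70 kb), Gata3 (13.7 kb), Gata2 (30.7 kb) and Gata5 (41.0 kb). The family median was 10.2 kb, and that of all protein-coding genes was 214 bp (quartiles 0 and 58791 bp). Among coding isoforms, the marked start farthest from a peak was that of Gata6-203 at 486 bp, and the closest unmarked one was that of Gata1-202 at 6.70 kb, so no coding start lay near the bound of 1 kb. All 4 unmarked genes lay within the third quartile of all genes. Cover of the gene with its flanks was 46.6% at Gata1, 12.1% at Gata4, 8.77% at Gata5, 6.89% at Gata2, 3.24% at Gata3 and 2.70% at Gata6, beside a median of 4.25% over all genes. Cover and marking did not run together, as the most covered member was unmarked and the least covered was marked.

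**Figure D4:**
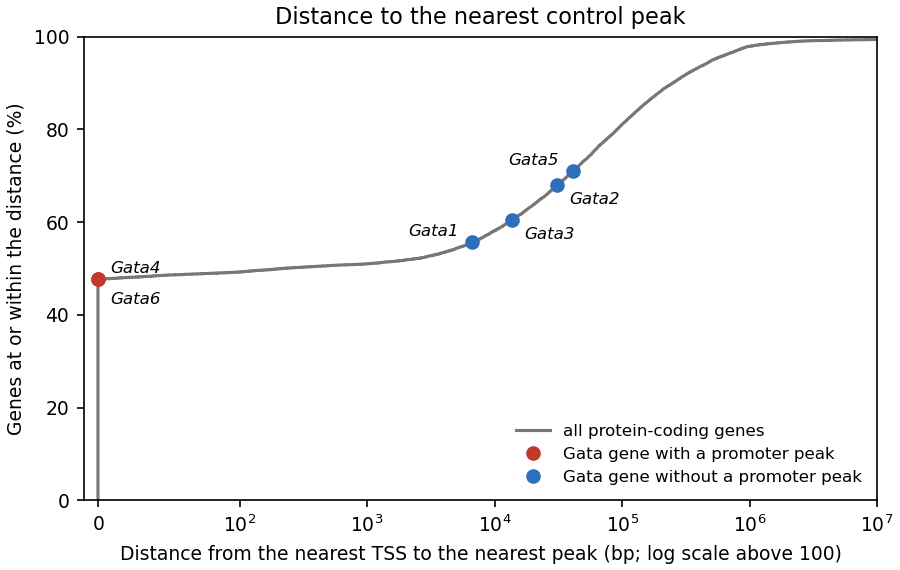
Share of all protein-coding genes (grey line) whose nearest start is at or within the distance on the x axis (bp, log scale above 100) of a control peak, with the Gata genes as points. Gata4 and Gata6 are at 0, and Gata1, Gata3, Gata2 and Gata5 follow between 6.70 and 41.0 kb.

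The promoter peaks of Gata4 and Gata6 were narrow beside those of embryonic stem cell genes. Over the 11149 genes with a marked promoter, the widest promoter peak of a gene had a median of 2225 bp (quartiles 1570 and 4990 bp). It was narrower than that of Gata4 for 15.3% of them and narrower than that of Gata6 for 55.6%. In the 11 marked embryonic stem cell genes the median was 34711 bp, the narrowest 3638 bp and the widest 71785 bp, so both Gata peaks were narrower than all of these. In base content, the Gata4 peak had 61.0% GC and 0.612 CpG observed over expected, and the Gata6 peak 64.0% and 0.793. Both were above the third quartiles of all peaks (54.2% and 0.564). That set includes peaks outside promoters, and no comparison with promoter peaks alone was made. Of the 2 promoter peaks, that of Gata6 held 7 GATA words, 2.69 per kb, more than 88.4% of peaks, whereas that of Gata4 held 2, or 1.62 per kb. Flank peaks are not ranked with them by this measure here. The gene body peak of Gata3 had 43.2% GC and 1 word, or 0.277 per kb.

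Genes that work with GATA factors or share their zinc finger are given as counts without a test, beside 2 of 6 for the Gata genes and 51.0% of all genes. Of 8 genes for GATA partners, 5 had a marked promoter, Zfpm1 (Fog1, a cofactor of Gata1), Lmo2 and Ldb1 (which bridge GATA factors to E-box proteins), the E-protein gene Tcf3 and Runx1. Zfpm2, Tal1 and Fli1 were unmarked, with nearest peaks at 499, 55.4 and 343 kb. Lmo2 and Runx1 were marked at isoforms other than the longest, and 3 of 8 were marked when the longest alone was used. Of 9 other genes with a GATA-type zinc finger, 8 were marked, the chromatin genes Gatad1, Gatad2a, Gatad2b, Mta1, Mta2, Mta3 and Rere as well as Trps1. Zglp1 was the exception, with a peak 5.36 kb away.

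Genes of the lineages in which Gata factors act were marked in unequal numbers. Of 12 primitive endoderm genes, 5 were marked, the receptor gene Pdgfra (880 bp), the laminin genes Lama1 (12777 bp) and Lamb1 (1429 bp), and the collagen genes Col4a1 and Col4a2, which share 1 peak of 993 bp. The transcription factor genes Sox17, Sox7, Foxa2 and Hnf4a were unmarked, as were Dab2 and Cubn, and their nearest peaks were 3.34 (Hnf4a) to 205 kb (Dab2) away. The 5 of 12 are 41.7%, near the 51.0% of all protein-coding genes. With peaks of at least 1 kb alone, 2 of 12 remained, Lama1 and Lamb1, beside 45.6% of all genes.

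Of 12 red cell and platelet genes, 2 were marked. The peak near Klf1, which encodes a red cell transcription factor, was 0.575 kb from its start, and that at Nfe2 was 39715 bp wide and also covered promoters of Cbx5 and Hnrnpa1. The count was 1 with a window of 500 bp. Globin genes Hba-a1 and Hbb-bt were unmarked, with nearest peaks at 15.4 and 402 kb. None of 12 heart genes was marked, Nkx2-5, Tbx5, Hand2 and Myh6 among them, and a count of 0 among 12 allows a share of up to 25%. Of 7 trophoblast genes, 5 were marked, Eomes, Tfap2c, Tfap2a, Ascl2 and Tead4, whereas Cdx2 and Elf5 were not. The count was 4 with peaks of at least 1 kb alone, without Ascl2 (419 bp). It was also 4 with the longest isoform alone, without Tfap2a.

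**Figure D5:**
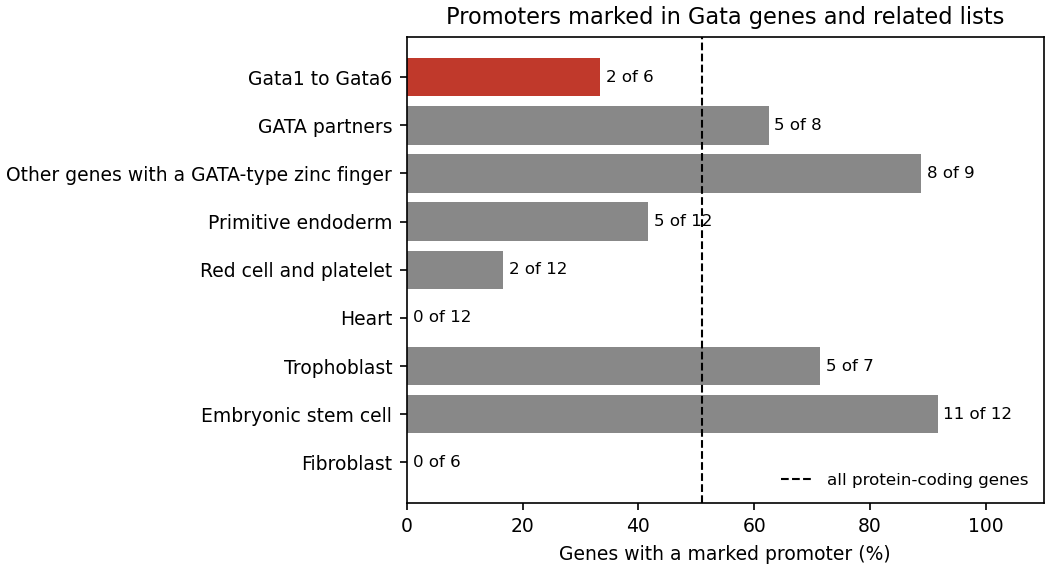
Share of genes with a marked promoter in the Gata family (red) and in lists of related and marker genes (grey), with counts. The dashed line is the 51.0% of all protein-coding genes, and the bars of heart and fibroblast genes are at 0.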

How the data were processed

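H3K27ac ChIP-seq (Abcam ab4729) was performed in 6 samples. According to the methods and the submitters' processing notes, the authors trimmed reads with Cutadapt, aligned them with bwa meme to mm10 and the human genome together, removed duplicates (Picard 2.9.1) and poorly mapped reads (SAMtools 1.4), used LanceOtron to call peaks and joined any closer than 2 kb. They kept peaks at ATAC-seq summits with a height of at least 8 rpm and an enrichment around the summit of at least 1 rpm (depth-normalized reads, input subtracted). The deposited control list pools 2 replicates and gives positions in bp with no score, and its depth cannot be read from it. The smallest gap between peaks was 2001 bp. Merging joins signal of adjacent elements into 1 wide peak, and the thresholds remove weak peaks.

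Peaks were compared with GENCODE M21 (GRCm38), an earlier release than the one named by the authors, using protein-coding isoforms of 21853 genes and an overlap of at least 1 bp. Sequence features came from GRCm38, and promoter sequences from RefSeq. Python 3.11.15, numpy 2.4.6, scipy 1.17.1 and matplotlib 3.10.9 were used. On simulated data, 3000 of 3000 placed promoters were recovered. The members and gene lists were chosen with earlier results of these data known. All 6 members, the genes whose promoters share their peaks, their neighbours and the listed genes could be named. The examples given from the longer lists were chosen after their values were seen. Alternatives were other windows, isoforms, widths, overlaps, flanks and midpoints. NVP-2 and ActD samples were not analysed here, and protein identity was not run. A listed gene and a peak sequence are not reported here.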

Additional observations from a re-analysis of the deposited data

How the results depend on the processing

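Gata4 and Gata6 were the marked members in all 7 alternatives for promoters, and all 6 members had a peak within the flank in every alternative tried for it. The share of all protein-coding genes marked moved from 51.0% to 51.9% with a window of 2 kb, 47.7% at the TSS base itself, 48.8% with the longest isoform, 51.8% with every transcript type, 45.6% with peaks at least 1 kb wide and 49.6% with an overlap of at least 500 bp. The number of members with a gene body peak went from 1 to 0 with peaks placed by midpoint. The 26 peaks became 13 with flanks of 50 kb and 49 with flanks of 200 kb. With CpG-rich set from 0.55 or 0.65, choices made after the data were seen, 82.2% and 85.5% of such promoters were marked. No paired analysis was possible because the list pools both control replicates and no test was made. For the same reason no replicate could be left out, and a stricter peak score was not run since the list holds no score. The list carries no read counts, so what its depth could miss was not examined, and an unmarked promoter is one without a listed peak.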
